A study of Mus musculus with 12 samples.

Results

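The data described here concern genes of inhibitory interneurons and their neuropeptides, 10 of the 21956 genes in the deposited table: Gad1, Gad2, Slc32a1, Sst, Npy, Vip, Cck, Pvalb, Nos1 and Lhx6. They were followed through intracerebral hemorrhage (ICH) in mouse brain. They were selected by gene symbol, with earlier results of these data known. Brain tissue was collected within 1 to 2 mm of the hematoma, in 1 mm slices, 48 h after collagenase had been injected into the right striatum, and from sham mice that had the same surgery without collagenase. The control genotype carried Fabp4 alleles flanked by loxP sites (Fabp4fl/fl), and the knockout (Fabp4CKO) carried the same alleles together with a tamoxifen-inducible Cre driven from Tmem119, a microglial gene, and was given tamoxifen before surgery, so that the recombination was aimed at microglia and not at the neurons that express the genes described here. Each of the 4 groups (Sham-Fabp4fl/fl, Sham-Fabp4CKO, ICH-Fabp4fl/fl and ICH-Fabp4CKO) held 3 mice with 1 library each. Whether the Fabp4fl/fl mice received tamoxifen and how old the mice of either genotype were are not given in the sources used here. Nor is the time after surgery at which sham tissue was taken. Mice without a neurological deficit after surgery were left out by the study.

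GABA, the main inhibitory transmitter of the brain, is made from glutamate by the decarboxylases GAD67 (Gad1) and GAD65 (Gad2) and is loaded into synaptic vesicles by VGAT (Slc32a1). GABAergic neurons in general express these genes, and in the striatum most of them are projection neurons, so the genes do not mark interneurons there. Somatostatin (Sst), neuropeptide Y (Npy) and neuronal nitric oxide synthase (Nos1) are carried together by a sparse class of striatal interneurons, parvalbumin (Pvalb) by fast-spiking interneurons, and vasoactive intestinal peptide (Vip) and cholecystokinin (Cck) mainly by cortical and hippocampal interneurons, with Cck also made by many excitatory neurons of the cortex and thalamus. Lhx6 is a transcription factor of interneurons born in the medial ganglionic eminence, the source of the somatostatin and parvalbumin classes.

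The 4 neuropeptide genes are shown by the sequence just before their transcription start. Neuropeptide genes are classic targets of cAMP signalling through the cAMP response element. The part of this element in the levels after ICH was not tested. Each line holds the 120 bases before the RefSeq start, 5′ to 3′ on the strand of the gene in build GRCm38.p6, with the core of that element (TGACG on either strand) in capitals. Sst lies at chr16:23890845-23890964 (minus strand), Npy at chr6:49822590-49822709 (plus strand), Vip at chr10:5639098-5639217 (plus strand) and Cck at chr9:121495695-121495814 (minus strand).
Sst: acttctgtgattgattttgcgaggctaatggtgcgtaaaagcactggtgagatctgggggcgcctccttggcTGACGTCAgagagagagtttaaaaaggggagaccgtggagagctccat
Npy: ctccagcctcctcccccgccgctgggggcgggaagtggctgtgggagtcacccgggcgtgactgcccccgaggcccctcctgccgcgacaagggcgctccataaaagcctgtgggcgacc
Vip: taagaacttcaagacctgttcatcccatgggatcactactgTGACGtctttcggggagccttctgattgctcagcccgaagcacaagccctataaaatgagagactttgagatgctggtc
Cck: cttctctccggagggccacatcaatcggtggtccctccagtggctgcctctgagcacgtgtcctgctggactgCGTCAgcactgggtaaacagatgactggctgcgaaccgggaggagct

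All 10 genes had at least 1 promoter in the RefSeq table (13 promoters), and the motifs were searched on both strands over the 250 bases before the start. The full palindromic element TGACGTCA was found in 1 of the 13 promoters, that of Sst, 48 to 41 bases before its start, and in 1.55% of the 32851 mouse promoters of the table. The shorter core TGACG, which lies inside the full element, was found for 5 of the 10 genes (Sst, Vip, Cck, Gad2 and Nos1) and in 17.8% of all promoters. TAATTA, a core that homeodomain proteins such as LHX6 bind, was found in 0 of the 13 promoters and in 4.84% of all. These are matches of letters and were not tested as binding sites.

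The libraries held 15650813 to 22406216 counts each. Fabp4 had 2, 1 and 2 counts in Sham-Fabp4fl/fl, 0 in each Sham-Fabp4CKO mouse, 46, 63 and 24 in ICH-Fabp4fl/fl and 5, 3 and 10 in ICH-Fabp4CKO. The tissue was not the same mixture in every library, and this touches the results below. The summed level of 5 choroid plexus markers was 852 to 3185 CPM (counts scaled to the library total, TMM-normalised) in Sham-Fabp4fl/fl and 14.8 to 49.1 CPM in the other 9 mice. That of 8 cortical excitatory neuron markers was 435 and 577 CPM in Sham-Fabp4fl/fl mice 1 and 2 and 509.6 CPM in ICH-Fabp4CKO mouse 2, against 35.4 to 170.4 CPM in the remaining 9. Markers of projection neurons of the striatum, the region that was injected, were present in every library, at a sum of 1276 to 6848 CPM. The labels name no brain region. ICH-Fabp4CKO mouse 1 held 1 read of 4 Y-linked genes and the other 11 mice 1302 to 2251, and mitochondrial reads made up 16.3% of ICH-Fabp4fl/fl mouse 1 and 7.90% to 11.9% of the others. In bulk tissue, fewer cells of a type, less RNA per cell and more RNA from other cells cannot be told apart.

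In sham tissue the 10 genes spanned a wide range of levels. Per kilobase of exon (GENCODE vM21), Sst was the highest, with a mean of 174 CPM per kb in Sham-Fabp4fl/fl and 212 in Sham-Fabp4CKO, and its range over the 6 sham mice, 166 to 223, did not overlap that of any other member. Gad1 (85.5 to 108 CPM per kb over the 6 mice), Gad2 (62.2 to 121), Slc32a1 (43.7 to 89.5), Pvalb (28.2 to 127), Cck (16.1 to 108) and Npy (44.2 to 66.2) followed in ranges that overlapped each other, except those of Gad1 and Npy. Nos1 (4.77 to 11.3) and Lhx6 (2.29 to 10.4) overlapped each other and lay below those, and Vip was the lowest at 0.408 to 1.11 CPM per kb. Cck and Pvalb were the members that varied most within a sham group: in Sham-Fabp4fl/fl the highest mouse was 6.72 times the lowest for Cck and 4.51 times for Pvalb, against 1.10 times for Sst.

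**Figure D1:**
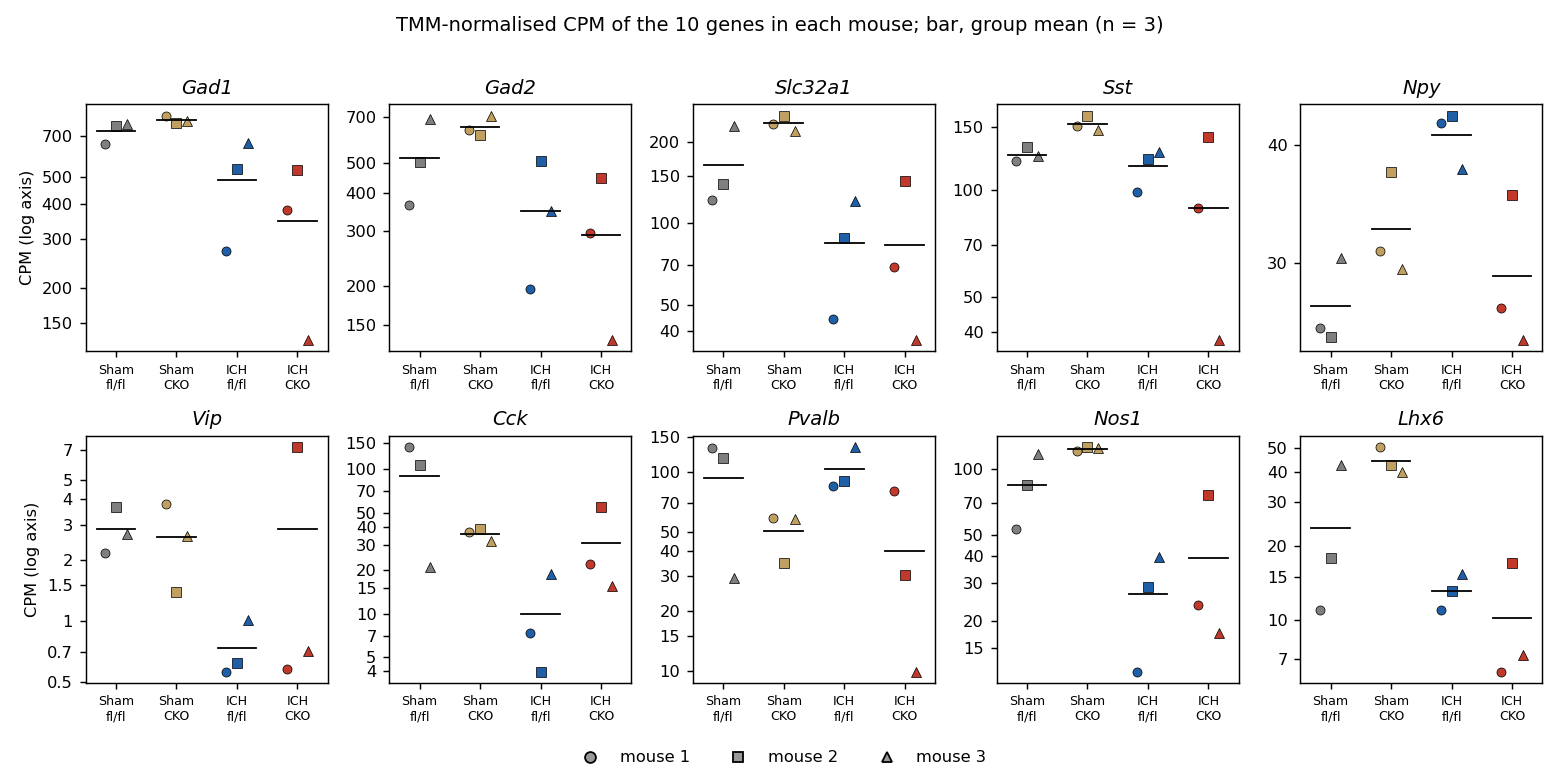
Level of each of the 10 genes in each mouse, as CPM after TMM scaling on a log axis whose range differs between panels. Symbols are mice 1 to 3 of each group and the bar is the group mean (n = 3). Npy is the member whose 3 ICH-Fabp4fl/fl mice (37.7 to 43.0 CPM) lie above the 3 Sham-Fabp4fl/fl mice (25.0 to 30.4 CPM), and Slc32a1, Vip, Cck and Nos1 lie below them.

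The effect of hemorrhage was asked separately in each genotype. In Fabp4fl/fl mice, Npy rose (1.48-fold) and Vip, Cck and Nos1 fell (to 0.257, 0.111 and 0.308 of the sham level), while Gad1, Gad2, Slc32a1, Sst, Pvalb and Lhx6 did not pass the test. In Fabp4CKO mice, Lhx6 fell (to 0.232 of the sham level) and Slc32a1 fell (to 0.355), and the other 8 did not pass. With p-values from edgeR's quasi-likelihood F test, adjusted by Benjamini and Hochberg's method over all genes (threshold 0.05), 1 of 10 members was called higher and 3 lower in Fabp4fl/fl, where 26.2% of the 14719 genes tested were called higher and 19.3% lower. In Fabp4CKO, 0 were called higher and 2 lower, against 24.5% and 11.1% of 14737 genes. The median log2 fold change of the 10 members was -0.74 in Fabp4fl/fl and -0.97 in Fabp4CKO, beside 0.02 and 0.01 for all genes tested. All 10 passed the filter on low counts in every comparison.

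The 12 neuron markers fixed for comparison (among them Rbfox3, Snap25, Map2 and Stmn2) showed how far neuronal transcripts fell as a share of the same libraries. In Fabp4fl/fl, 10 of the 12 were called lower (median log2 fold change -1.16), beside 19.3% of all genes. In Fabp4CKO 3 of 12 were called lower (median -1.19), beside 11.1%, so the median fall was alike and fewer markers passed. Their summed level was 5740 to 7076 CPM in Sham-Fabp4fl/fl, 6229 to 6411 CPM in Sham-Fabp4CKO, 2058 to 4097 CPM in ICH-Fabp4fl/fl, and 1710 to 4930 CPM in ICH-Fabp4CKO. The 8 microglia and macrophage markers moved the other way, with 8 of 8 called higher in both genotypes, beside 26.2% and 24.5% of all genes. Their summed level in ICH-Fabp4CKO was 7324 and 12163 CPM in mice 1 and 3 and 2225 CPM in mouse 2.

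The genes of GABA synthesis and packaging had lower means after ICH in both genotypes, and 1 of these 6 gene-by-genotype tests passed in the main edgeR fits. Gad1 stood at 653, 758 and 769.9 CPM in Sham-Fabp4fl/fl and at 271, 531 and 660.3 CPM in ICH-Fabp4fl/fl, where mouse 3 overlapped the sham range (log2 fold change -0.61, SE 0.33, edgeR adjusted p = 0.169). In Fabp4CKO it was 826, 777 and 793 CPM in sham and 380.3, 530.1 and 131 CPM after ICH, so the groups did not overlap, with mouse 3 the lowest of all 12 (log2 fold change -1.20, SE 0.47, edgeR adjusted p = 0.0855). Gad2, which makes the GABA pool of synaptic terminals, showed more spread. It was 366, 501 and 689 CPM in Sham-Fabp4fl/fl against 195, 505 and 350.2 CPM in ICH-Fabp4fl/fl, overlapping groups (log2 fold change -0.60, SE 0.38, edgeR adjusted p = 0.225). In Fabp4CKO it was 635, 613 and 708 CPM in sham and 296, 447 and 134 CPM after ICH, groups that did not overlap (log2 fold change -1.16, SE 0.42, edgeR adjusted p = 0.0688). DESeq2 called Gad1 (adjusted p = 0.0242) and Gad2 (0.0146) lower in Fabp4CKO, beside 24.0% of all genes. So did edgeR in 1 fit over all 12 libraries (adjusted p = 0.0432 and 0.0488), beside 17.0%.

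Slc32a1, the vesicular GABA transporter, was the lowest relative to sham of these 3 genes. Its level was 122, 139.5 and 229.9 CPM in Sham-Fabp4fl/fl and 44.2, 88.0 and 120.5 CPM in ICH-Fabp4fl/fl, so that the groups did not overlap but nearly touched (log2 fold change -0.99, SE 0.40, edgeR adjusted p = 0.0801). Without ICH-Fabp4fl/fl mouse 3, Slc32a1 (-1.37, edgeR adjusted p = 0.0234) and Gad1 (-0.91, edgeR adjusted p = 0.0393) were called lower in that genotype, where 5 members then were, beside 25.8% of all genes, and DESeq2 called Slc32a1 with all mice (adjusted p = 0.0262). In Fabp4CKO the 3 sham mice were close together at 234, 250.2 and 219 CPM and the 3 ICH mice lay at 69.0, 143 and 37.0 CPM. This fall passed the test narrowly (log2 fold change -1.49, SE 0.47, edgeR adjusted p = 0.0493). It was past the threshold in 1 of the 6 fits that left out a mouse, the one without ICH-Fabp4CKO mouse 2, and the other 5 gave adjusted p from 0.0555 to 0.144. Exons of Slc32a1 overlap those of Gm14205 on the opposite strand, those of Nos1 overlap Gm26995 likewise, and those of Lhx6 overlap Gm27953 on the same strand, and the library kit is not described as keeping strand, so reads of these pairs could be shared.

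Of Npy and Sst, carried by the same striatal interneurons, Npy rose in Fabp4fl/fl and Sst did not pass in either genotype. Npy was 25.5, 25.0 and 30.4 CPM in Sham-Fabp4fl/fl and 42.3, 43.0 and 37.7 CPM in ICH-Fabp4fl/fl. Every ICH mouse was above every sham mouse, as for 34.4% of all genes in that comparison, and the rise passed the test (log2 fold change 0.56, SE 0.14, edgeR adjusted p = 0.0140). It was no longer past the threshold without Sham-Fabp4fl/fl mouse 1 (adjusted p = 0.0749), without Sham-Fabp4fl/fl mouse 2 (0.0818) or without ICH-Fabp4fl/fl mouse 2 (0.0660), with log2 fold changes between 0.47 and 0.61 over the 6 such fits. In Fabp4CKO, Npy was 30.8, 37.5 and 29.5 CPM in sham and 26.8, 35.4 and 24.8 CPM after ICH, overlapping groups (log2 fold change -0.17, SE 0.18, edgeR adjusted p = 0.470).

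Sst encodes the peptide that restrains release from many neurons and glands. Its level was 119.9, 132 and 124 CPM in Sham-Fabp4fl/fl and 98.7, 122 and 128 CPM in ICH-Fabp4fl/fl, and these groups overlapped (log2 fold change -0.14, SE 0.16, edgeR adjusted p = 0.483). In Fabp4CKO it was 151, 161 and 147 CPM in sham and 89.0, 140.3 and 38.0 CPM after ICH. The 3 ICH-Fabp4CKO mice were all below the sham mice but far apart, with mouse 3 the lowest, and the difference did not pass (log2 fold change -0.78, SE 0.43, edgeR adjusted p = 0.182).

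Vip and Cck had the largest falls of the 10 members in Fabp4fl/fl and did not pass in Fabp4CKO. Vip, at 2.17, 3.67 and 2.68 CPM in Sham-Fabp4fl/fl, was 0.563, 0.623 and 1.01 CPM in ICH-Fabp4fl/fl, with every ICH mouse below every sham mouse and only 8, 10 and 19 counts behind the ICH values. It fell by 1.96 on the log2 scale (SE 0.40, edgeR adjusted p = 0.00777) and passed in each of the 6 fits that left out a mouse, but not when all 12 libraries shared 1 estimate of the spread (adjusted p = 0.0840). In Fabp4CKO it was 3.79, 1.39 and 2.62 CPM in sham and 0.582, 7.25 and 0.711 CPM after ICH, so that ICH mouse 2 was the highest of all 12 and the other 2 ICH mice were below every sham mouse (log2 fold change 0.14, SE 0.98, edgeR adjusted p = 0.913). Without ICH-Fabp4CKO mouse 2 the log2 fold change was -1.99 with adjusted p = 0.0116.

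Cck, the satiety and anxiety-related peptide, ranged from 3.99 to 142 CPM over the 12 mice. It was 142, 107 and 21.1 CPM in Sham-Fabp4fl/fl and 7.32, 3.99 and 18.7 CPM in ICH-Fabp4fl/fl, groups that did not overlap although sham mouse 3 and ICH mouse 3 were close. It fell by 3.17 on the log2 scale (SE 0.80, edgeR adjusted p = 0.0167), and without ICH-Fabp4fl/fl mouse 2 it missed the threshold (adjusted p = 0.0591). In Fabp4CKO it was 36.7, 38.6 and 31.8 CPM in sham and 21.9, 54.7 and 15.6 CPM after ICH, again with mouse 2 the highest of its group (log2 fold change -0.21, SE 0.45, edgeR adjusted p = 0.713). Without that mouse the fall was 0.93 on the log2 scale (log2 fold change -0.93, adjusted p = 0.00213). The cortical excitatory neuron markers moved with Cck: 7 of 8 were called lower in Fabp4fl/fl (median log2 fold change -3.18) and 0 of 8 in Fabp4CKO (median 0.12), beside 19.3% and 11.1% of all genes. Over the 12 libraries Cck followed their mean log2 level with Pearson's r = 0.926, a description over libraries that share the 4 groups. Thalamic neuron marker sums were 854, 563 and 135 CPM in Sham-Fabp4fl/fl mice 1, 2 and 3 and 85.1 to 199 CPM in ICH-Fabp4fl/fl. They were 134 to 261 CPM in Sham-Fabp4CKO and 105 to 172 CPM in ICH-Fabp4CKO. The part of cortical or thalamic tissue in the Cck and Vip values was not tested.

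Parvalbumin, a calcium buffer, did not pass in either genotype. Pvalb was 133, 118 and 29.4 CPM in Sham-Fabp4fl/fl and 85.4, 90.4 and 133 CPM in ICH-Fabp4fl/fl, with sham mouse 3 far below the other 2 (log2 fold change 0.11, SE 0.50, edgeR adjusted p = 0.867). In Fabp4CKO it was 58.4, 34.7 and 58.0 CPM in sham and 80.1, 30.2 and 9.89 CPM after ICH, a spread of 8.10 times within the ICH group (log2 fold change -0.33, SE 0.69, edgeR adjusted p = 0.708). Sham-Fabp4fl/fl mouse 3 also had the lowest thalamic marker sum of its group, and the part of this in the Pvalb values was not tested.

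Nos1, which makes nitric oxide in the Sst and Npy interneurons and is also expressed at lower levels by other neurons, was lower in both genotypes. It was 53.1, 84.5 and 118 CPM in Sham-Fabp4fl/fl and 11.7, 28.6 and 39.4 CPM in ICH-Fabp4fl/fl, without overlap. It fell by 1.70 on the log2 scale (SE 0.47, edgeR adjusted p = 0.0227), and 3 of the 6 fits that left out a mouse missed the threshold, those without Sham-Fabp4fl/fl mouse 2 (adjusted p = 0.0555), Sham-Fabp4fl/fl mouse 3 (0.0649) or ICH-Fabp4fl/fl mouse 2 (0.0704). In Fabp4CKO the sham mice lay close together at 122, 126 and 125 CPM and the ICH mice lay at 23.8, 76.2 and 17.7 CPM, all below. The size was alike (log2 fold change -1.66, SE 0.55) and narrowly missed the threshold (edgeR adjusted p = 0.0557). The fall passed with RLE scaling in place of TMM (edgeR adjusted p = 0.0479), by DESeq2 (adjusted p = 0.00604) and in 1 edgeR fit over all 12 libraries (0.0324). It missed with total counts without TMM (edgeR adjusted p = 0.0615). Of the 6 fits that left out a mouse, only the one without ICH-Fabp4CKO mouse 2 passed, and the others gave edgeR adjusted p from 0.0940 to 0.153.

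Lhx6, the transcription factor, had the smallest p of the 10 members in Fabp4CKO. It was 50.2, 42.4 and 39.8 CPM in Sham-Fabp4CKO and 6.21, 17.1 and 7.27 CPM in ICH-Fabp4CKO, a fall of 2.11 (log2 fold change -2.11, SE 0.40, edgeR adjusted p = 0.0140). Leaving out any 1 ICH mouse kept the call and leaving out any 1 sham mouse lost it (adjusted p from 0.0570 for mouse 3 through 0.0590 for mouse 2 to 0.0637 for mouse 1). In Fabp4fl/fl it was 11.0, 17.8 and 42.4 CPM in sham and 11.0, 13.2 and 15.4 CPM after ICH, overlapping groups in which sham mouse 3 was highest (log2 fold change -0.88, SE 0.47, edgeR adjusted p = 0.155). Without that mouse the log2 fold change was -0.21 (edgeR adjusted p = 0.589), and without sham mouse 1 it was -1.27 and passed (edgeR adjusted p = 0.0399). Sham-Fabp4fl/fl mouse 3 also had the highest striatal projection neuron sum of its group, 5809 CPM against 1852 and 2055 CPM, and the part of this in the Lhx6 values was not tested.

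The number of members called in the knockout changed with the mice in the fit, as did the number of all genes called lower (1642 with all mice). With all 6 mice 2 were lower. Without any 1 Sham-Fabp4CKO mouse 0 were, beside 50 to 75 of all genes tested, and without ICH-Fabp4CKO mouse 2 there were 8, beside 32.7% of all genes: Gad1, Gad2, Slc32a1, Sst, Vip, Cck, Nos1 and Lhx6, with log2 fold changes from -2.71 (Lhx6) to -0.93 (Cck). ICH-Fabp4CKO mouse 2 had the highest neuron marker sum of the ICH mice (4930 CPM), the highest cortical marker sum and the lowest microglia and macrophage sum of its group. Of the 10 members, 6 did not overlap between ICH and sham in Fabp4CKO, all lower (Gad1, Gad2, Slc32a1, Sst, Nos1 and Lhx6), beside 28.9% of all genes (and 0 members higher, beside 33.2%), and 4 were lower without overlap in Fabp4fl/fl (Slc32a1, Vip, Cck and Nos1), beside 27.4%.

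**Figure D2:**
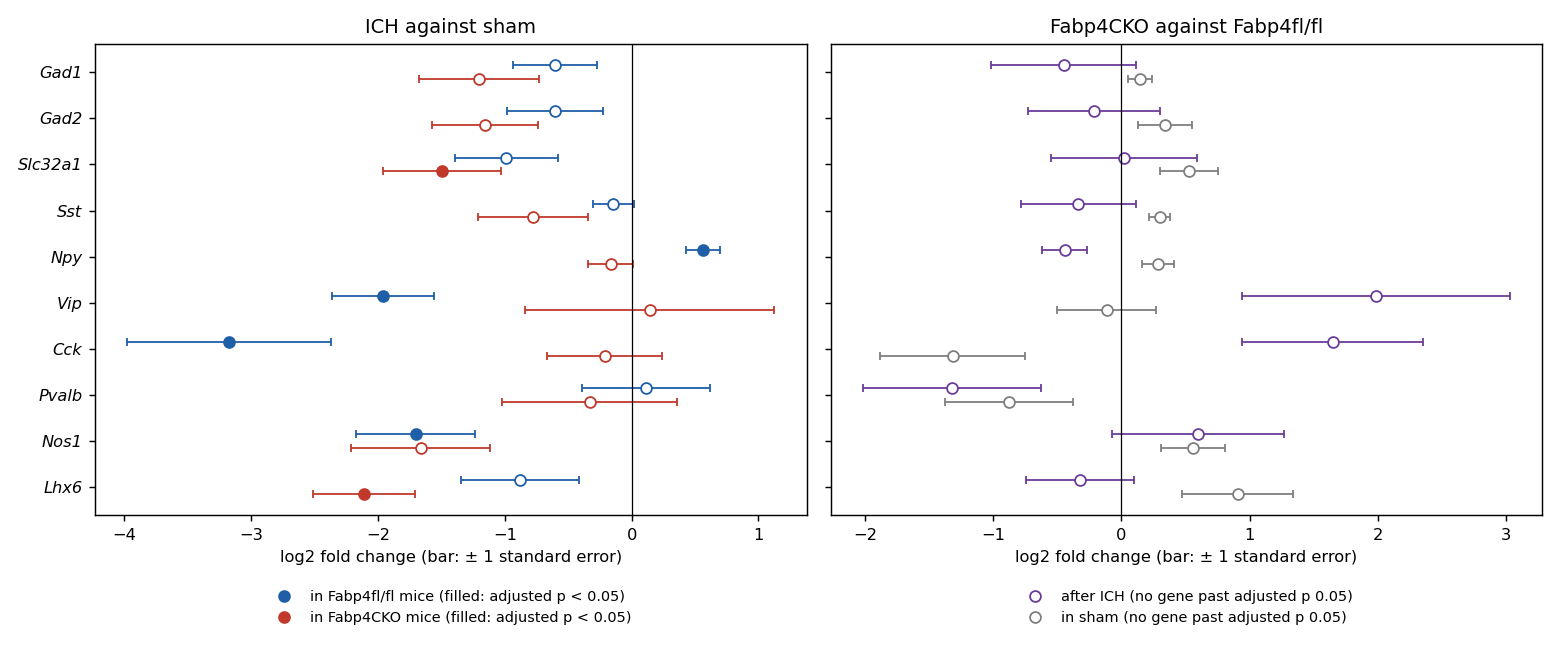
Log2 fold change of each member (point) with 1 standard error (bar) from edgeR, for ICH against sham in each genotype (left) and for Fabp4CKO against Fabp4fl/fl after ICH and in sham (right). Filled points passed an adjusted p of 0.05: Npy, Vip, Cck and Nos1 in Fabp4fl/fl and Slc32a1 and Lhx6 in Fabp4CKO on the left, and 0 on the right.

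To place the members beside this fall in the share of neuronal transcripts, each member's log2 CPM was taken relative to the mean log2 CPM of the 12 neuron markers in the same library. On this scale most genes of the table lay higher after ICH, 71.5% without overlap in Fabp4fl/fl and 79% in Fabp4CKO, so a higher value there says little about a member, and a lower value (3.58% and 2.31% of genes) is the less common outcome. Scaling the edgeR fit to the summed neuron markers likewise moved the median log2 fold change of all genes to 1.23 in Fabp4fl/fl and 1.33 in Fabp4CKO, and of all genes 64.5% were then called higher and 2.42% lower in Fabp4fl/fl, and 60.7% and 0.916% in Fabp4CKO. On that scale Npy (1.78), Sst (1.02) and Pvalb (1.29) were called higher and Cck (-2.11) lower in Fabp4fl/fl, where Vip (-0.87) and Nos1 (-0.71) were not called, and in Fabp4CKO Npy (1.07) was called higher and Lhx6 (-1.03) lower. Vip was the 1 member lower without overlap in Fabp4fl/fl (difference -0.69, from a mean of -7.03 ± 0.35 to -7.72 ± 0.23, SD, n = 3). In Fabp4CKO 3 members were lower without overlap: Lhx6 (difference -0.94, -3.11 ± 0.16 to -4.06 ± 0.42), Nos1 (-0.66, -1.61 ± 0.06 to -2.28 ± 0.39) and Slc32a1 (-0.40, -0.70 ± 0.13 to -1.11 ± 0.21). Each has an exact two-sided permutation p of 0.1, the smallest that 3 against 3 mice can give.

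Npy was higher relative to the neuron markers in both genotypes, by 1.74 in Fabp4fl/fl and 1.13 in Fabp4CKO, and Sst (1.01) and Pvalb (1.52) were higher in Fabp4fl/fl and Cck (0.88) in Fabp4CKO, each without overlap (exact two-sided permutation p = 0.1). Gad1 and Gad2 differed by 0.46 and 0.51 in Fabp4fl/fl and by -0.12 and -0.02 in Fabp4CKO, with overlapping groups in all 4 cases. Between the genotypes Cck (1.84) and Nos1 (0.58) lay higher in the knockout after ICH without overlap, beside 5.58% of genes, and Sst (0.27) in sham, beside 1.43% (exact two-sided permutation p = 0.1 each). Over the 12 libraries the log2 level of Gad1 followed the neuron marker mean with Pearson's r = 0.921, that of Slc32a1 with 0.919, that of Nos1 with 0.915 and that of Sst with 0.809, whereas for Npy r was -0.16. These are descriptions over 12 libraries that share the group structure.

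**Figure D3:**
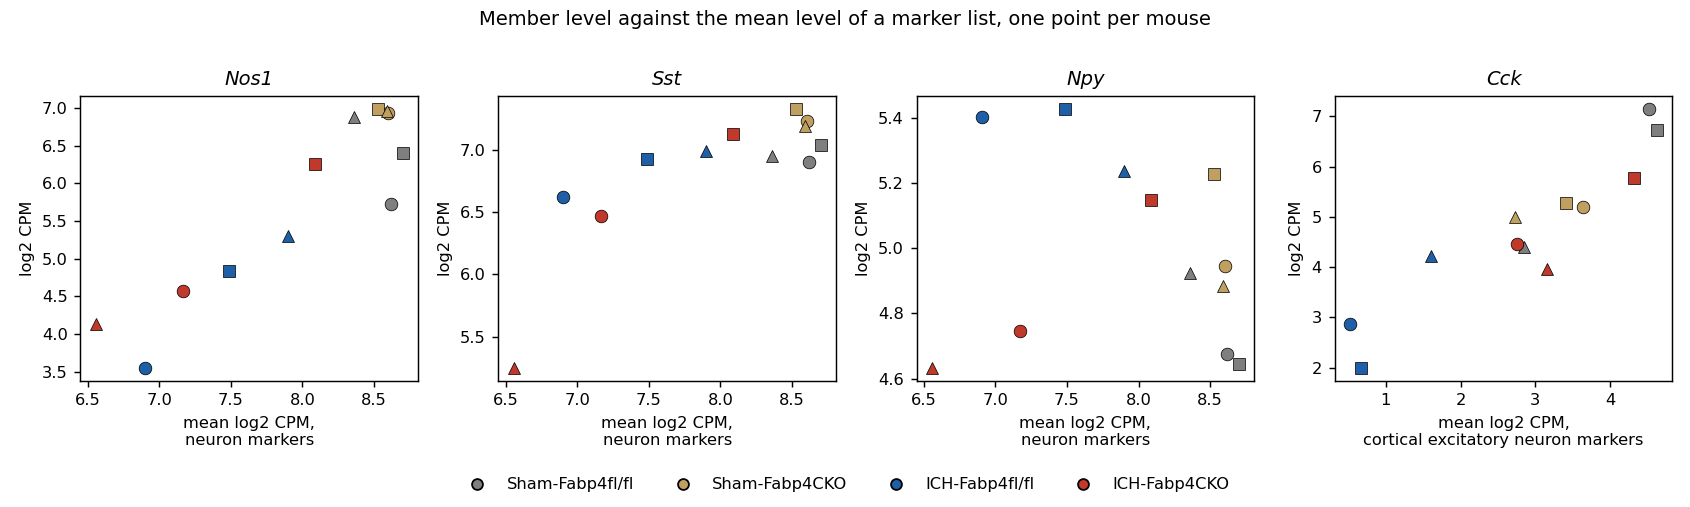
Log2 CPM of Nos1, Sst and Npy against the mean log2 CPM of 12 neuron markers, and of Cck against that of 8 cortical excitatory neuron markers; each point is 1 mouse, coloured by group, with circles, squares and triangles for mice 1, 2 and 3. Nos1 rises with the neuron markers (Pearson's r = 0.915 over 12 libraries), Npy does not (r = -0.16), and Cck follows the cortical markers (r = 0.926).

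Ratios between members within a library do not depend on library scaling. In each genotype 7 such ratios of CPM were examined, chosen after the values had been seen. The ratio of Sst to Npy was 4.70, 5.28 and 4.08 in Sham-Fabp4fl/fl, 2.33, 2.84 and 3.39 in ICH-Fabp4fl/fl, 4.89, 4.30 and 4.98 in Sham-Fabp4CKO and 3.32, 3.96 and 1.53 in ICH-Fabp4CKO. All 6 ICH mice lay below all 6 sham mice. The ratio of Nos1 to Sst was 0.443, 0.640 and 0.949 in Sham-Fabp4fl/fl and 0.119, 0.234 and 0.308 after ICH, and 0.809, 0.785 and 0.849 in Sham-Fabp4CKO and 0.267, 0.543 and 0.465 after ICH. It was lower without overlap in both genotypes, and within each genotype the exact two-sided permutation p was 0.1 for either ratio. Non-overlap of 3 against 3 mice always gives this p, so it adds nothing to the non-overlap. How often the ratios of other gene pairs do not overlap was not computed. The ratio of Slc32a1 to Gad1 was lower without overlap in Fabp4fl/fl and overlapped in Fabp4CKO, that of Lhx6 to Sst was lower and that of Cck to Gad1 higher without overlap in Fabp4CKO and both overlapped in Fabp4fl/fl (exact two-sided permutation p = 0.1 for each without overlap). The ratios of Gad1 to Gad2 and Pvalb to Sst overlapped in both genotypes.

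**Figure D4:**
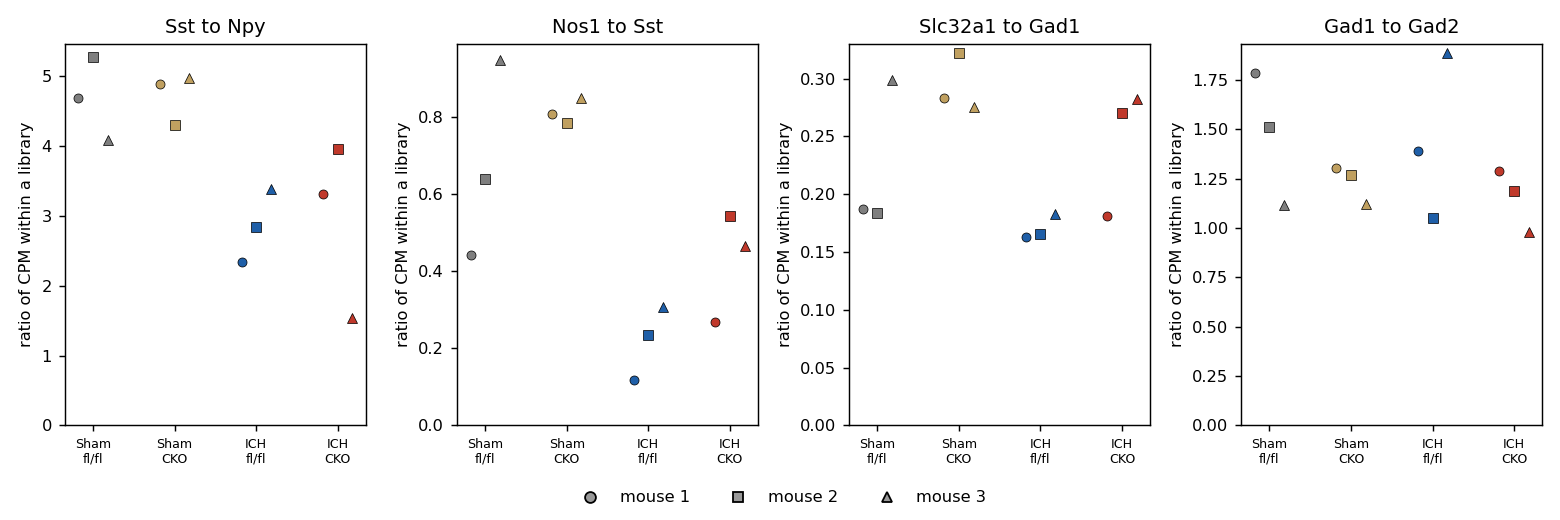
Ratio of CPM between pairs of members within each library, by group, on axes that start at 0; symbols are mice 1 to 3. The Sst to Npy ratio was 4.08 to 5.28 in the 6 sham mice and 1.53 to 3.96 in the 6 ICH mice, and the Gad1 to Gad2 ratio overlapped between sham and ICH.

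The knockout was compared with Fabp4fl/fl after ICH, which sets the levels in injured tissue side by side and does not take the sham difference into account. No member was called by edgeR's quasi-likelihood test (0 of 10, with 1 at an unadjusted p under 0.05, and 0 by DESeq2), and 0% of the 14600 genes tested were called, with 12.2% at an unadjusted p under 0.05. The member at an unadjusted p under 0.05 was Npy, at 26.8, 35.4 and 24.8 CPM in ICH-Fabp4CKO and 42.3, 43.0 and 37.7 CPM in ICH-Fabp4fl/fl (log2 fold change -0.44, SE 0.18, edgeR adjusted p = 0.398). Npy and Pvalb were lower without overlap, beside 11.5% of genes, and 0 members were higher, beside 8.3%. For Gad1 (log2 fold change -0.45, SE 0.56), Gad2 (-0.21, SE 0.52), Slc32a1 (0.02, SE 0.57) and Sst (-0.34, SE 0.45) the standard errors were as large as the differences or larger, so that moderate differences in either direction were not detectable with these mice. Vip (1.99, SE 1.04), Cck (1.65, SE 0.71), Pvalb (-1.32, SE 0.69), Nos1 (0.59, SE 0.67) and Lhx6 (-0.32, SE 0.42) did not pass either.

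In sham mice no member was called between the genotypes (0 of 10 by edgeR and 0 by DESeq2, with 3 at an unadjusted p under 0.05, beside 10.2% of genes), and 0.111% of 14395 genes were called. Gad1, Sst and Nos1 were higher in Sham-Fabp4CKO without overlap, beside 5.97% of genes, and 0 members were lower, beside 8.86%. Sst differed by 0.30 on the log2 scale (SE 0.08, edgeR adjusted p = 0.421), Slc32a1 by 0.53 (SE 0.22, edgeR adjusted p = 0.484) and Cck by -1.32 (SE 0.56, edgeR adjusted p = 0.484). Of the 6 fits that left out a mouse, only the one without Sham-Fabp4fl/fl mouse 3 called members. In it Gad2, Slc32a1, Sst, Nos1 and Lhx6 were called higher and Cck and Pvalb lower in the knockout, beside 10.5% of all genes higher and 9.12% lower. The log2 fold changes were from 0.30 (Sst) to 1.64 (Lhx6), and -1.78 (Cck) and -1.30 (Pvalb). Mice 1 and 2 of that group had thalamic neuron marker sums of 854 and 563 CPM, against 135 CPM in mouse 3 and 134 to 261 CPM in Sham-Fabp4CKO, and cortical marker sums of 435 and 577 CPM against 113 CPM in mouse 3. The part of these regional markers in the sham difference was not tested.

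The test of whether the response to ICH differed between the genotypes called no member (0 of 10 by edgeR and 0 by DESeq2, with 2 at an unadjusted p under 0.05, beside 9.94% of genes), and 0.0199% of 15089 genes. The 2 members were Npy, whose log2 response was lower in the knockout by 0.77 (difference -0.77, SE 0.23, edgeR adjusted p = 0.312), and Cck, whose response was higher by 2.94 (SE 1.00, edgeR adjusted p = 0.368). Without ICH-Fabp4CKO mouse 2 the difference for Npy was -0.94 and passed (adjusted p = 0.0402). Lhx6 (-1.26, SE 0.67, edgeR adjusted p = 0.562) and Vip (2.07, SE 1.16, edgeR adjusted p = 0.584) did not pass, and no member that was called in 1 genotype is therefore shown to respond differently in the other.

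Other genes of the GABA and peptide systems were described by lists, with log2 fold changes of ICH against sham given for the genes named, each called by edgeR unless said otherwise. The counts for each list stand beside 26.2% of all genes called higher and 19.3% lower in Fabp4fl/fl, and 24.5% and 11.1% in Fabp4CKO. Of 8 genes of GABA uptake, breakdown and precursor transport, 5 were called lower in Fabp4fl/fl and 3 in Fabp4CKO, with 0 called higher (median log2 fold change -1.01 and -0.90). The GABA transporter gene Slc6a11 (GAT3), mainly astrocytic, fell in both genotypes (-1.94, SE 0.46, edgeR adjusted p = 0.0136 in Fabp4fl/fl, and -2.08, SE 0.49, edgeR adjusted p = 0.0242 in Fabp4CKO), as did the glutamine transporter gene Slc38a1 (-1.41 and -0.84). The GABA transaminase gene Abat (-1.08) was called in Fabp4CKO and not in Fabp4fl/fl.

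Of 23 other interneuron genes, 10 were called lower in Fabp4fl/fl and 13 in Fabp4CKO, with 0 called higher (median -1.15 and -1.54). Calb2, the calcium-binding protein calretinin, fell in both genotypes (-4.92, SE 0.43, edgeR adjusted p = 0.000397 in Fabp4fl/fl, and -4.12, SE 0.87, edgeR adjusted p = 0.0186 in Fabp4CKO). Chodl, a marker of long-range Sst neurons (-2.56 and -1.90), and Crh (-2.51 and -2.88) also fell in both. Crhbp (-2.37) and Cort (-5.20), a somatostatin-like peptide, were called in Fabp4fl/fl and not in Fabp4CKO, and Calb1 (-1.54) and Lamp5 (-1.28) in Fabp4CKO and not in Fabp4fl/fl, without a test of these differences except the interaction, which called no gene of the list. Calretinin, calbindin and Crh are also made by neurons outside the interneuron classes, thalamic neurons among them for Calb2, and thalamic markers were lower in both genotypes (3 and 2 of 5 called).

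Of 15 interneuron transcription factors, 4 were called lower and 2 higher in Fabp4fl/fl, and 3 lower and 2 higher in Fabp4CKO (median -0.61 and -1.02). Among those that rose in both genotypes was Maf (1.72 and 2.68), which macrophages and microglia, whose markers rose in the same libraries, also express. Dlx2 (-2.09) and Dlx1 (-2.16), which specify GABAergic fate, were called in Fabp4fl/fl and not in Fabp4CKO, and Nkx2-1 (-1.90), the regulator upstream of Lhx6, and Etv1 (-0.45) in Fabp4CKO and not in Fabp4fl/fl.

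Of 12 receptors for the member peptides, 8 were called lower in Fabp4fl/fl (median -1.67) and 2 in Fabp4CKO (median -1.02), and the difference between these counts was not tested. The presynaptic NPY receptor gene Npy2r fell in both (-3.05, SE 0.47, edgeR adjusted p = 0.00241 in Fabp4fl/fl, and -2.13, SE 0.49, edgeR adjusted p = 0.0226 in Fabp4CKO). So did the somatostatin receptor gene Sstr1 (-1.87 and -1.51), while Sstr3 (-2.67), Sstr2 (-1.73) and the CCK receptor gene Cckbr (-1.34) were called in Fabp4fl/fl and not in Fabp4CKO.

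Among 14 other neuropeptide precursors and granins, 10 were called lower in Fabp4fl/fl and 6 in Fabp4CKO (median -1.61 and -1.78). Tac2, the neurokinin B precursor (-3.07 and -3.80), Pnoc, the nociceptin precursor (-1.63 and -2.36), the granin gene Scg2 (-1.59 and -1.54), Trh (-1.77 and -3.27) and Grp (-7.49 and -2.18) fell in both genotypes. Adcyap1, the PACAP precursor (-3.17), was called in Fabp4fl/fl and not in Fabp4CKO, and Vgf (-1.52) in Fabp4CKO and not in Fabp4fl/fl. Of 8 genes that process peptides or release dense-core vesicles, 6 and 3 were called lower (median -1.35 and -1.06). The prohormone convertase gene Pcsk1 (-2.54 and -1.92), the amidating enzyme gene Pam (-0.84 and -0.69), and Scg5 (-1.18 and -1.10) fell in both genotypes, and Cadps2 (-2.01) and Cadps (-1.78) were called in Fabp4fl/fl and not in Fabp4CKO.

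Within nitric oxide signalling, Nos1 stood against its 2 paralogs. The inducible Nos2, a gene of activated macrophages, rose in both genotypes (2.18, SE 0.42, edgeR adjusted p = 0.00623 in Fabp4fl/fl, and 3.84, SE 0.78, edgeR adjusted p = 0.0165 in Fabp4CKO), as did the endothelial Nos3 (1.98 and 0.77), and Nos1ap, the adaptor of the neuronal enzyme, fell (-1.95 and -1.31). The 4 markers of cholinergic neurons, which include large-celled interneurons of the striatum but are not only these, were not called in Fabp4fl/fl (0 of 4, median -0.03). In Fabp4CKO all were called lower (4 of 4, median -1.69, beside 11.1% of all genes), with Lhx8 at -2.54, Slc18a3 at -1.94, Chat at -1.44 and Slc5a7 at -1.25. The interaction called 0 of these 4 (median -1.77), and their summed level in sham was 42.4 to 85.8 CPM in Fabp4fl/fl and 99.0 to 115 CPM in Fabp4CKO. No gene of these lists was called between the genotypes after ICH by edgeR, where those with the smallest p in their lists included Dlx2 (1.57, adjusted p = 0.328), Slc18a3 (-1.54, adjusted p = 0.339) and Sstr4 (1.81, adjusted p = 0.341).

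The medians of the first 6 lists stood beside -1.16 and -1.19 for the neuron markers. Scaled to the neuron markers, an alternative chosen for the lists after seeing the data, they lay between -0.57 (receptors) and 0.38 (transcription factors) in Fabp4fl/fl and between -0.59 (other precursors) and 0.29 (GABA handling) in Fabp4CKO, so that those of GABA handling and transcription factors turned sign in both genotypes and that of peptide processing in Fabp4CKO. The medians of nitric oxide signalling were 0.35 and 0.29 on that scale and those of the cholinergic markers 0.97 and -0.54. On that scale 5 of 14 other precursors were still called lower in Fabp4fl/fl and 2 in Fabp4CKO, and 3 of 23 other interneuron genes in both. Of all genes, 2.42% and 0.916% were called lower on it.

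**Figure D5:**
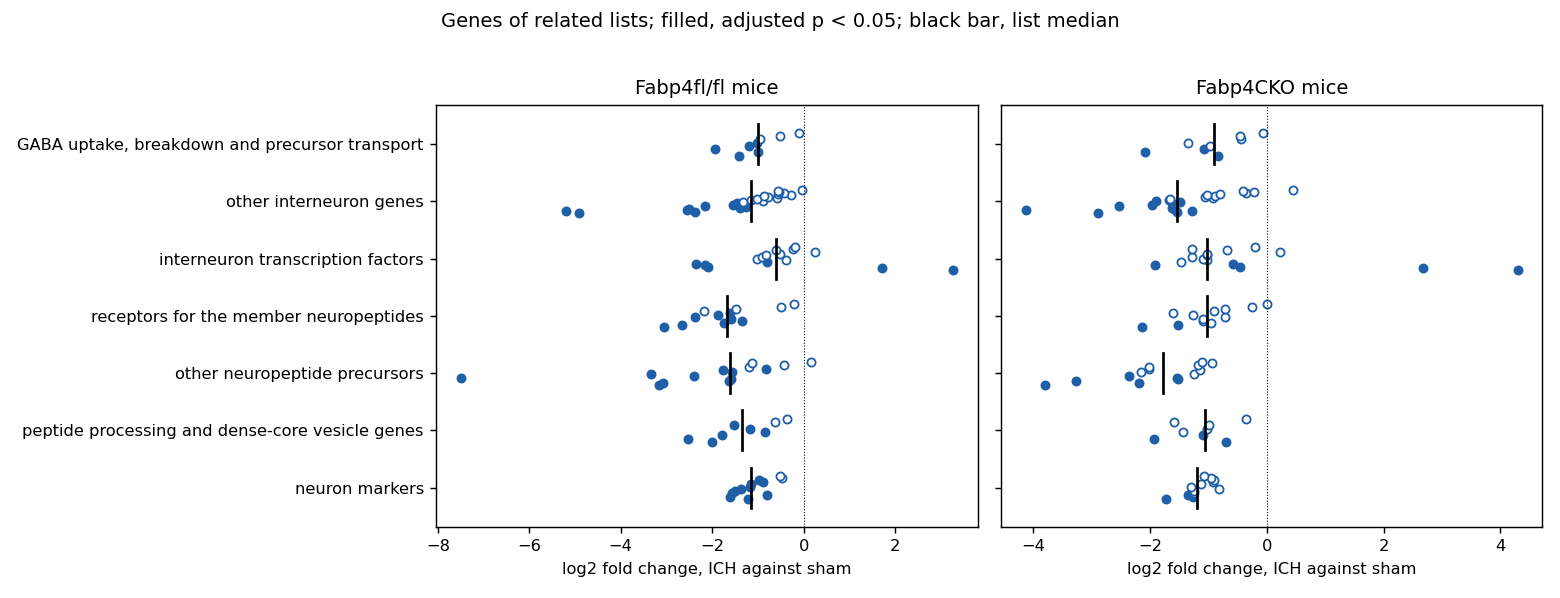
Log2 fold change of ICH against sham for each gene of 6 related lists and of the 12 neuron markers, in Fabp4fl/fl (left) and Fabp4CKO mice (right); the ranges of the horizontal axes differ. Filled points passed an adjusted p of 0.05 in edgeR and the black bar is the list median, between -1.78 and -0.61 for every list shown. The filled points above 0 among the transcription factors include Maf.

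The genes most like each member in level over the 12 libraries were ranked by Pearson's correlation of log2 CPM among 15088 genes, as a description. Nos1 was closest to Magi2, Arhgap26 and Pnma2 (r = 0.992, 0.992 and 0.991) and Slc32a1 to Mark1, Syndig1 and Sptbn4 (0.989, 0.986 and 0.986), all expressed in neurons. Cck was closest to Rtn4r, Fxyd7 and Nrn1 (0.978, 0.968 and 0.961), Gad1 to Hhip, Efr3b and Lrrc24 (0.980, 0.974 and 0.971), Gad2 to Slc25a42, Arnt2 and Inpp5f (0.957, 0.952 and 0.952), and Sst to Slc25a29, Atat1 and Efnb3 (0.970, 0.967 and 0.960). Npy was closest to Crip2, Pkig and Agrn (0.945, 0.940 and 0.924), Lhx6 to Grk5, Sorcs1 and Msl3l2 (0.955, 0.949 and 0.947), Vip to Nr1d2, Nppc and Oxtr (0.950, 0.928 and 0.925), and Pvalb to the oligodendrocyte gene Opalin, Pdgfd and Pln (0.947, 0.899 and 0.896).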

How the data were processed

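Expected counts per gene were deposited by the authors; they are not whole for 7.36% to 8.69% of genes per library, from poly(A)-selected RNA of 12 libraries. The submitters' processing notes name Bowtie2 2.2.8, HISAT2, StringTie 1.3.1 and DESeq2; the genome build and the counting tool are not given in the sources used here. Counts were rounded and tested with edgeR 4.0.16 (R 4.3.3): filterByExpr (minimum count 10, minimum total 15), TMM, quasi-likelihood F test, Benjamini-Hochberg adjustment over all genes tested, threshold 0.05, with only the 2 groups compared in each fit and all 4 for the interaction. Levels are TMM-scaled CPM over 12 libraries, and log2 levels use a prior count of 2. Depth was 15650813 to 22406216 counts per library. The script was tested on simulated counts. Replicates are separate mice. The closest pair of libraries in a group differed beyond sampling noise. Alternatives were RLE or no TMM scaling, scaling to neuron markers, other count filters, DESeq2 1.42.0, 1 fit over 12 libraries, a replicate block, and leaving out each mouse. Named were all 10 members, in each list and comparison the called genes of smallest p, at most 4 (with no call, the 1 of smallest p), and the 3 nearest genes to each member. Some genes that this rule selects are not reported here. The members and lists were chosen with earlier results of these data known.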

Additional observations from a re-analysis of the deposited data

How the results depend on the processing

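In Fabp4fl/fl 1 member was higher and 3 lower under RLE scaling, total counts without TMM and no filter, as in the values reported. Of all genes, 24.9%, 24.3% and 20.5% were higher and 21.8%, 21% and 17.3% lower in these settings. There were 2 lower in 1 fit over all 12 libraries (20% of all genes), where Vip missed the threshold, and 2 with at least 10 counts in every library (19.1%), where Vip was not tested. By DESeq2 (24.8%) and with the replicate block (22.4%) 4 were lower, and Slc32a1 passed. Scaled to the neuron markers, 3 members were higher and 1 lower in Fabp4fl/fl (64.5% and 2.42% of all genes), and 1 higher and 1 lower in Fabp4CKO (60.7% and 0.916%). This scaling reversed Gad1 (0.45), Gad2 (0.49), Slc32a1 (0.027), Sst (1.02) and Lhx6 (0.22) in Fabp4fl/fl, Sst (0.26), Npy (1.07, edgeR adjusted p = 0.0369), Cck (0.78) and Pvalb (0.90) in Fabp4CKO, Slc32a1 between genotypes after ICH (-0.032) and Nos1 in the interaction (-0.026). In Fabp4CKO 5 members were lower by DESeq2 (24.0% of all genes), 5 in 1 fit over all 12 libraries (17.0%), 3 with RLE scaling (14.4%) and 1 with total counts without TMM (9.40%). Slc32a1 after ICH also reversed with total counts (-0.010), the replicate block (-0.024) and 1 fit over all 12 libraries (-0.021). With the median of the neuron markers as reference, 0 members lay higher without overlap in sham.

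The labels do not say whether replicate numbers pair the mice, and the main fits treated the mice as unpaired. For ICH against sham in Fabp4fl/fl, correlations of same-numbered mice were 0.196, 0.0230 and 0.127. There each of the 3 pairs correlated best with its own number (mean 0.115, against -0.0571 for mice of unlike number). The correlations were -0.00457, -0.00771 and -0.00438 in Fabp4CKO, 0.311, -0.166 and -0.575 between genotypes after ICH, and 0.0618, -0.175 and -0.0888 in sham. With the replicate block Slc32a1 passed in Fabp4fl/fl (adjusted p = 0.00828), Nos1 passed in Fabp4CKO (0.0467), Vip in Fabp4CKO reversed (-0.71) and Nos1 in the interaction reversed (-0.10).

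Leaving out each mouse gave 0 to 1 members higher and 1 to 5 lower in Fabp4fl/fl, beside 17.6% to 28.9% and 9.83% to 25.8% of all genes. In Fabp4CKO 0 to 8 were lower, beside 0.335% to 32.7%. Between genotypes in sham 0 to 5 were higher and 0 to 2 lower, beside at most 10.5% and 9.12%, and in the interaction 0 to 1 were lower, beside at most 0.725%. Ranges that cross 0 were -0.36 to 0.40 for Pvalb in Fabp4fl/fl, and in Fabp4CKO -1.99 to 0.59 for Vip, -0.93 to 0.079 for Cck and -1.35 to 0.10 for Pvalb. Between genotypes after ICH they were -0.66 to 0.13 for Gad2, -0.63 to 0.37 for Slc32a1, -0.82 to 0.028 for Sst, -0.14 to 2.46 for Vip and -0.33 to 1.00 for Nos1, in sham -0.50 to 0.19 for Vip, and in the interaction -0.91 to 0.41 for Nos1 and -0.063 to 2.56 for Vip. Relative to the neuron markers, the members without overlap were 3 to 7 higher and 1 to 2 lower in Fabp4fl/fl, 2 to 3 and 3 to 4 in Fabp4CKO, 2 to 3 and 0 to 3 between genotypes after ICH, and 1 to 7 and 0 to 2 in sham. The shares of all genes without overlap were not computed with a mouse left out, and groups with fewer mice overlap less readily. These counts therefore say nothing about the members in particular.

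Over all genes, ICH against sham gave 3862 higher and 2845 lower calls in Fabp4fl/fl, 9494 and 356 scaled to the neuron markers, 2716 and 1465 without ICH-Fabp4fl/fl mouse 2, 2633 and 1707 without Sham-Fabp4fl/fl mouse 2, and 4309 and 3856 without ICH-Fabp4fl/fl mouse 3. Calls after ICH between genotypes were 0 in edgeR (1777 at an unadjusted p under 0.05), 255 higher and 323 lower by DESeq2, and 154 and 208 in 1 fit over 12 libraries. In sham they were 0 and 16 in edgeR, 11 and 139 by DESeq2, 0 and 2 with at least 10 counts in every library, and 1531 and 1331 without Sham-Fabp4fl/fl mouse 3. The interaction gave 2 and 1 in edgeR, 183 and 83 by DESeq2, and 260 and 111 without ICH-Fabp4CKO mouse 2. For ICH against sham in Fabp4CKO they were 3605 and 1642 in edgeR, 4154 and 3543 by DESeq2, 8948 and 135 scaled to the neuron markers, 4171 and 2558 in 1 fit over 12 libraries, 2578 and 1105 with the replicate block, 1435 and 148 without ICH-Fabp4CKO mouse 1, 2350 and 697 without mouse 3, 5203 and 4896 without mouse 2, and 701 to 796 and 50 to 75 without any 1 Sham-Fabp4CKO mouse. The causes were not tested. Counts limit Vip, at 8 to 136 counts per library.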
